A study of Mus musculus with 32 samples.

Results

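The 108 genes described here changed together with *Hes7* in both of 2 independent time courses of mouse presomitic mesoderm (PSM) cells grown in a dish. They were chosen on the same measurements that are described. Each row of the count table was scaled to the total of its column, as counts per 1e+06 counts (CPM), and put on the log2(CPM + 0.5) scale, a straight line over time was removed within each course, and the Pearson correlation r with the *Hes7* values treated the same way was computed over the 16 libraries of a course. A mean of at least 5 CPM and an r of at least 0.6 in both courses were required. Of 21886 rows, 9986 reached 5 CPM; 398 of these (3.99%) reached the r threshold in Ex5, 592 (5.93%) in Ex4 and 129 (1.29%) in both. For comparison, 68 rows (0.681%) had an r of -0.6 or lower in both. From the 129, 21 were left out by name, among them *Hes7* itself, the luciferase reporter and the best known cycling genes (*Lfng*, *Nrarp*, *Dusp4*, *Per1*, *Efna1*, *Hes6*, *Hey1*, *Id2*, *Notch1*), which leaves the 108 members. Because r, amplitude and peak time come from the comparison that chose the members, they are given as a description with no test.

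Both courses, Ex5 and Ex4, used cells of 1 mouse epiblast stem cell line, AES0204, carrying a luciferase reporter of *Hes7*. The stem cells had been maintained with Activin A, bFGF and the Wnt inhibitor IWR-1-endo. All dishes of both courses were then taken towards PSM with SB431542, which blocks TGF-beta and Nodal receptors, LDN193189, which blocks BMP receptors, CHIR99021, which activates Wnt signalling, and bFGF, with CHIR99021 lowered in a second step. Ex5 has libraries from 165 to 425 min and Ex4 from 155 to 405 min, each from its own dish, with 1 library per time point and course; the labels do not say from which event the minutes run. The 2 courses differ in experiment and not in any treatment the labels name, so the course and any batch cannot be told apart, and p-values measure the spread of these dishes about fitted curves.

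The presomitic mesoderm is the tissue from which somites, the forerunners of vertebrae and skeletal muscle, are cut off in sequence. The timing comes from the segmentation clock, a delayed negative feedback in which Notch signalling switches on *Hes7*, whose protein is a transcriptional repressor that shuts off its own gene and other Notch targets until it decays. FGF/ERK and Wnt target genes cycle in the same cells, and ERK signalling also drives *Hes7* in the posterior PSM.

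*Hes7* went through 2 cycles in each course. In Ex5 its lowest, median and highest levels were 153 CPM at 165 min, 271 CPM and 431 CPM at 385 min, and in Ex4 they were 126 CPM at 155 min, 221 CPM and 290.5 CPM at 215 min. A cosine with a common period fitted best at 135 min, with peaks at 237 and 372 min in Ex5 and at 213 and 348 min in Ex4 and a peak-to-trough fold of 2.01. Markers fixed for the PSM (*T*, *Tbx6*, *Msgn1* and 7 others) summed to 3429 to 3987 CPM in Ex5 and 3027 to 3507 CPM in Ex4, and all 10 exceeded 5 CPM on average. The 8 anterior PSM and somite genes summed to 2.36 to 4.68 CPM in Ex5 and 2.82 to 6.65 CPM in Ex4. Of these, *Tcf15*, *Meox1* and *Pax3* reached 1 CPM in some library, and 2 of the 8 genes did so in 16 or more libraries. The other 5, *Mesp2*, *Ripply1*, *Ripply2*, *Meox2* and *Uncx*, stayed under 1 CPM in every library. So did *Sox17*, *Gata6*, *Gata4* and *Cer1* of the 5 endoderm genes and 5 of 6 lateral and vascular mesoderm genes. Markers of the epiblast, the cells of origin, summed to 229 to 316 CPM in Ex5 and 290 to 413 CPM in Ex4, with *Nanog* and *Fgf5* under 1 CPM in every library. Neural markers summed to 12.1 to 15.8 CPM in Ex5 and 15.5 to 19.5 CPM in Ex4.

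Libraries differed in how strongly their counts depended on the base composition of transcripts, and this moved with the members. The slope of a library's log2 deviations on transcript GC content ran from -0.0836 to 0.0737 log2 per 10% GC in Ex5 and from -0.145 to 0.0829 in Ex4, where the 155 and 405 min libraries, both low in *Hes7*, were the lowest. The 16 libraries of a course share a time order and a slow drift. Over them the GC slope had an r of 0.467 in Ex5 and 0.412 in Ex4 with the *Hes7* residuals (Spearman's rho 0.412 and 0.391). Without the 2 libraries whose *Hes7* residual lay farthest from its median, the slope had an r of 0.247 in Ex5 and 0.267 in Ex4. With the mean of the members it had an r of 0.670 in Ex5 and 0.617 in Ex4. The members had a median transcript GC of 56.8%, against 50.1% over 9981 genes at 5 CPM or more, and 94 of 108 (87.0%) lay above that median. The 20 genes left out by name that have an annotated transcript had a median of 57.6%. With a smooth dependence on GC removed from each library, a choice made after seeing the data, 55 genes met the rule, 38 of them among the 108. Without the single 155 min library of Ex4, 58 genes met it, 55 of them among the 108. With r corrected for the GC slope of the library, 41 of the 108 kept an r of at least 0.6 in both courses, and the median over the 108 of the lower corrected r was 0.574. The share of counts from mitochondrial genes also moved with *Hes7* in Ex4, with an r of -0.564 (rho -0.515). This r was -0.525 without the 2 libraries whose *Hes7* residual lay farthest from its median. With the mean of the members the share had an r of -0.709. In Ex5 these were -0.13 with *Hes7* (rho 0.0) and -0.273 with the members. The part of the mitochondrial share in each gene's r was not tested.

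**Figure D1:**
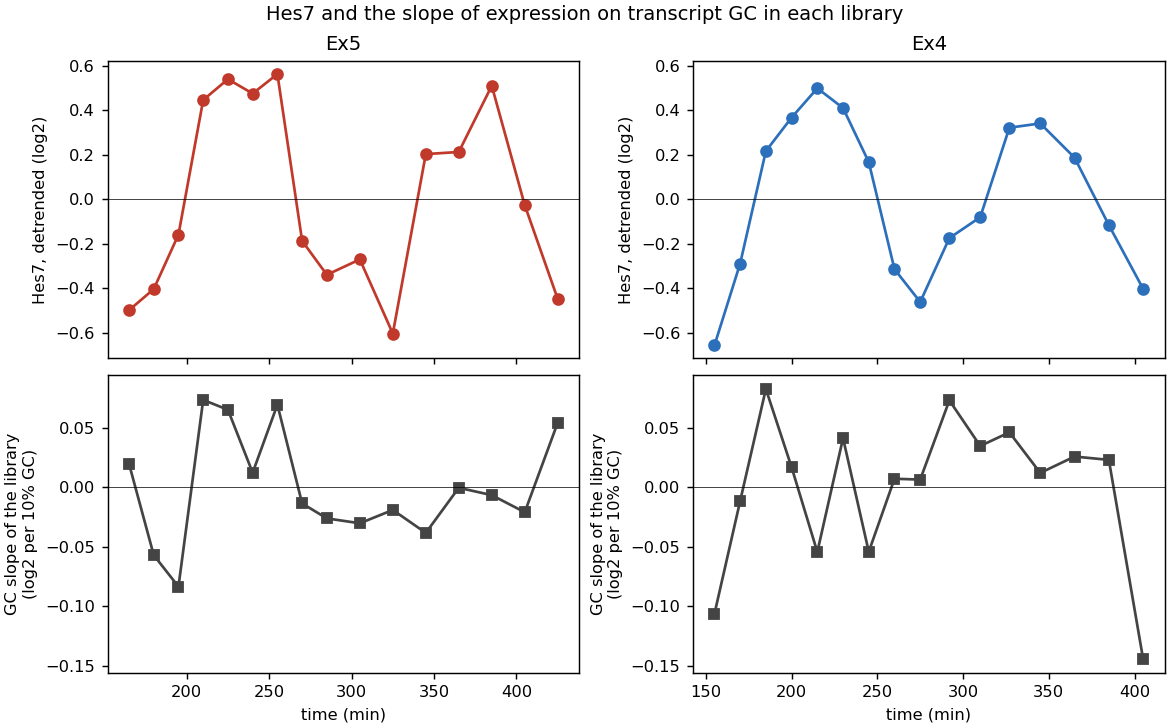
Detrended *Hes7* in log2 units (top) and the slope of each library's log2 deviations on transcript GC content (bottom) against time in min, for Ex5 (left) and Ex4 (right), with 1 library per point. The 155 and 405 min libraries of Ex4 have the lowest GC slopes, -0.107 and -0.145 log2 per 10% GC, at low points of *Hes7*.

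A core of 22 members stayed within the rule in each of the 32 settings that left out 1 library, with GC removed, with r corrected for the GC slope of the library, and without the first and last Ex4 libraries together. These are *Ajuba*, *Bbc3*, *Tbc1d10b*, *Sox4*, *Arhgef2*, *Dab2ip*, *Cxxc5*, *Borcs6*, *Jade2*, *Rbmxl1*, *Sertad1*, *Jade1*, *Irs2*, *Dbp*, *Efnb1*, *Sall4*, *Arl4d*, *Ing1*, *Zcchc3*, *Wipf1*, *Tet3* and *Ext1*. The members' r ran from 0.601 to 0.892 in Ex5 (median 0.690) and from 0.6005 to 0.956 in Ex4 (median 0.695). Just inside the threshold stood *Hdgf* (r 0.602 in Ex5 and 0.757 in Ex4), *Ddx23* (0.7004 and 0.602), *Becn1* (0.601 and 0.637) and *Hoxb6* (0.708 and 0.6005). Just outside it stood *Men1* (0.701 in Ex5 and 0.5996 in Ex4), *Atg4d* (0.5996 and 0.631), *Hnrnpa0* (0.598 and 0.648) and *Rrs1* (0.596 and 0.752), so no gap separates members from non-members.

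**Figure D2:**
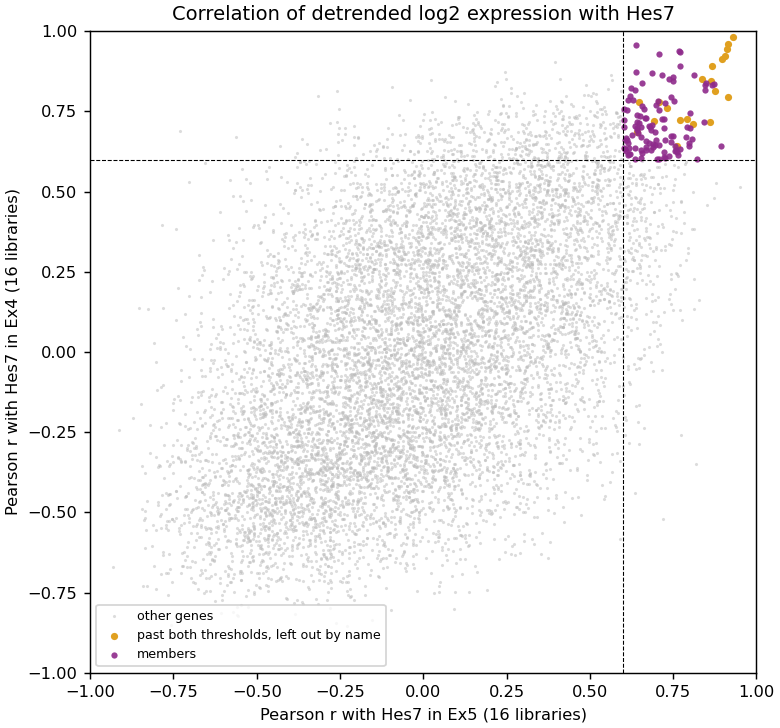
Pearson r with *Hes7* in Ex5 (horizontal) and Ex4 (vertical) for every row at 5 CPM or more, 16 libraries a course. The 108 members (purple) and the 20 genes left out by name other than *Hes7* (orange) fill the corner past 0.6 on both axes (dashed lines), at the edge of a continuous cloud.

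The members moved far less than *Hes7*. Their fitted peak-to-trough fold, from the cosine with the *Hes7* period and phase, ran from 1.04 to 1.39 with a median of 1.12, against the 2.01 of *Hes7* and a median of 1.05 over all genes tested; 17 members reached 1.2 and 31 stayed under 1.1. The fold was larger in Ex5 than in Ex4 for 61 of 108. *Sertad1* (1.39), *Glis3* (1.38), *Otx1* (1.37) and *Phox2a* (1.32) had the widest swings. Of these only *Sertad1*, at a mean of 14.9 CPM, exceeded 10 CPM. The fold of *Glis3* was 1.62 in Ex5 and 1.17 in Ex4, and *Glis3* missed the rule in 10 of the 32 settings that left out 1 library. With GC removed, *Sertad1* and *Otx1* met the rule, while *Glis3* and *Phox2a* did not. Fitted peaks lay between 11.9 min before and 15.7 min after *Hes7*, 100 of 108 within 10 min, which the rule largely fixes. The peak came before *Hes7* in both courses for 39 members, after it in both for 27, and on different sides in the 2 courses for 42. The earliest peaks were those of *Snai1* (-11.9 min), which encodes the Snail repressor of *Cdh1*, and *Pdzrn3* (-11.1 min), a ubiquitin ligase gene. The latest were those of *Tle1* (15.7 min), a Groucho co-repressor that HES proteins recruit, *Foxo3* (12.8 min), a forkhead factor restrained by AKT, and *Efnb1* (10.9 min). Between the courses a member's peak shifted by 5.80 min in the median gene and by 20.5 min in the most discordant one, so orders within a few minutes are not resolved.

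**Figure D3:**
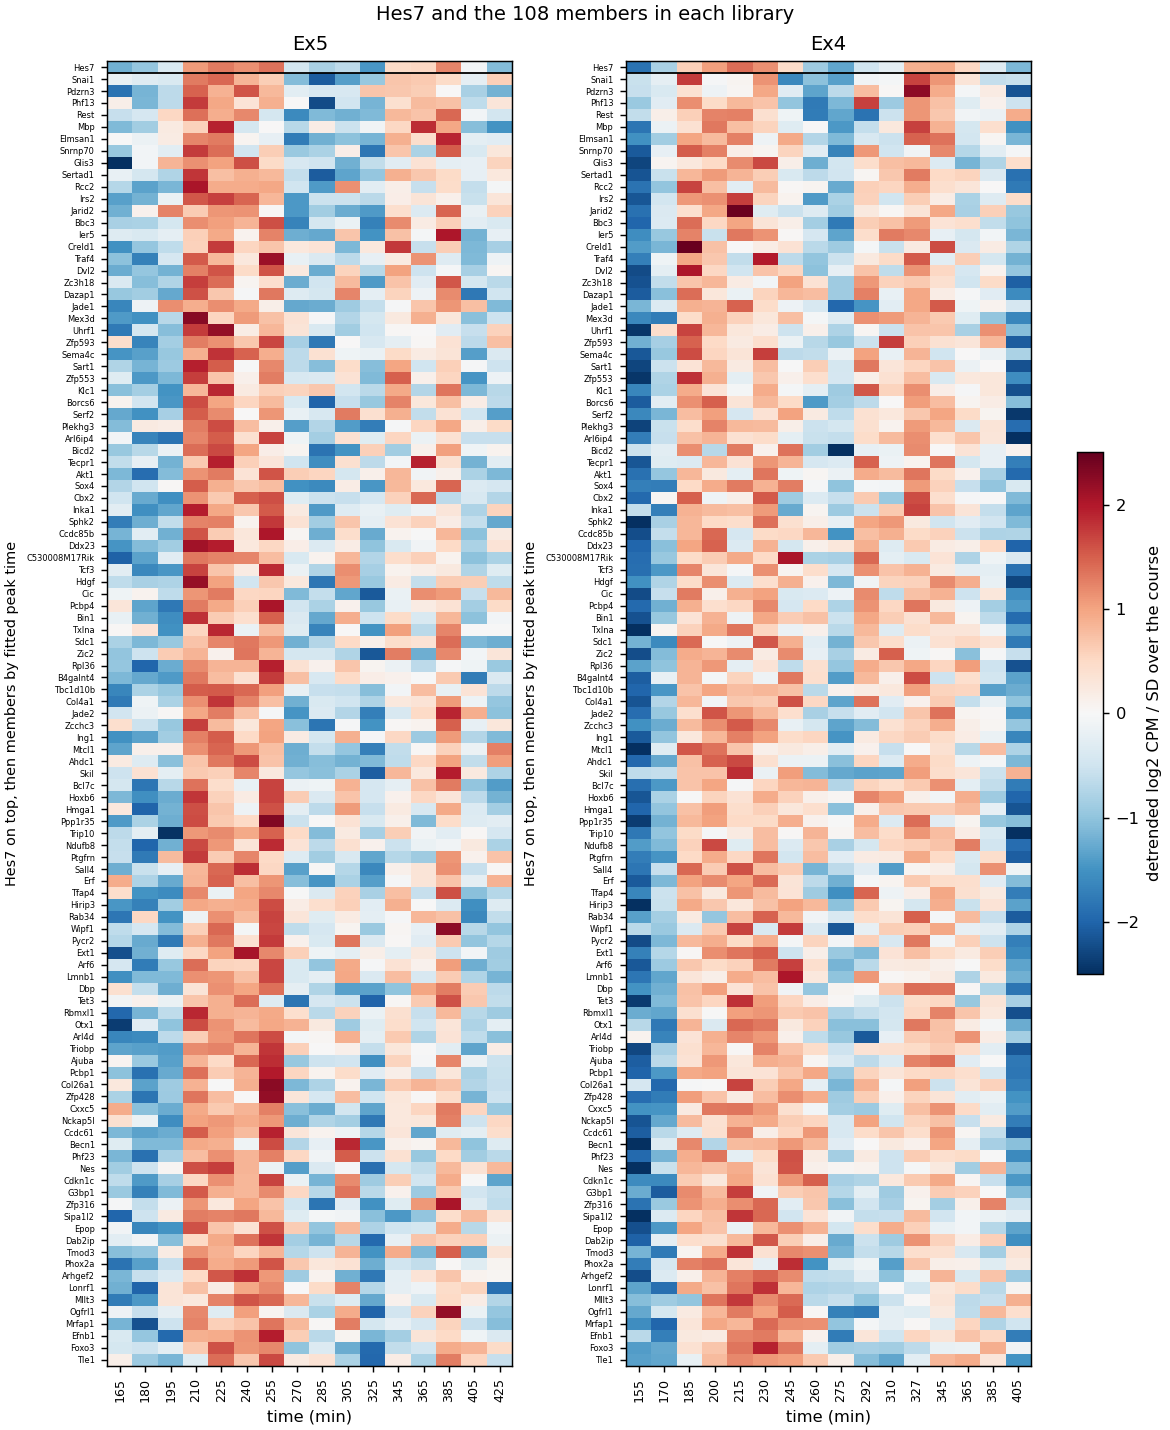
Detrended log2 CPM divided by its SD over the course, for *Hes7* (top row) and the 108 members ordered by fitted peak time (rows), in each library of Ex5 (left) and Ex4 (right), with time in min along the bottom. The first cycle is broad and shared in both courses, the second is weaker and less even, and the 155 and 405 min libraries of Ex4 are low for most members.

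Signalling and adhesion genes made up 11 members, and *Ajuba* had the highest lower r of all 108 (0.849 in Ex5, 0.838 in Ex4). *Ajuba* encodes a LIM scaffold at cell junctions that restrains the Hippo kinases and serves as a SNAIL co-repressor. Its lowest, median and highest levels were 54.5 CPM at 195 min, 61.1 CPM and 67.9 CPM at 385 min in Ex5, and 53.7 CPM at 155 min, 63.5 CPM and 70.9 CPM at 345 min in Ex4. The highest libraries lie at the second *Hes7* peak in both courses and the ranges of the courses overlap almost completely. *Dab2ip*, a Ras GTPase-activating scaffold (r 0.814 in Ex5, 0.862 in Ex4), had 80.4 CPM at 325 min, 89.7 CPM and 98.3 CPM at 255 min in Ex5, and 69.0 CPM at 155 min, 85.1 CPM and 96.0 CPM at 385 min in Ex4. Its low points coincide with *Hes7* troughs, and the courses again overlap. In its highest Ex4 library, at 385 min, *Hes7* had 207 CPM, below the Ex4 median of 221 CPM. *Irs2*, the adaptor of the insulin and IGF receptors, had 47.3 CPM at 270 min, 55.7 CPM and 69.6 CPM at 225 min in Ex5, and 49.5 CPM at 155 min, 60.2 CPM and 67.4 CPM at 215 min in Ex4, so its highest library fell in the first cycle in both.

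*Efnb1* encodes ephrin-B1, a membrane ligand of Eph receptors that acts at cell boundaries. It had 45.8 CPM at 195 min, 64.6 CPM and 79.8 CPM at 425 min in Ex5, and 50.2 CPM at 170 min, 58.9 CPM and 62.6 CPM at 230 min in Ex4. The 4 latest Ex5 libraries were its highest, above all Ex4 libraries. The rest of the group, *Akt1*, *Dvl2*, *Ptgfrn*, *Sdc1*, *Sema4c*, *Sphk2* and *Traf4*, had r between 0.624 and 0.790 in the 2 courses and folds from 1.04 to 1.12. They include *Dvl2*, the Dishevelled transducer of Wnt receptors (fold 1.07), and *Traf4*, a TRAF adaptor (fold 1.09). With GC removed, *Dvl2* had an r of 0.572 in Ex5 and 0.493 in Ex4, and *Traf4* had 0.381 and 0.436. None of this rest of the group met the rule with GC removed, or without the 155 and 405 min libraries of Ex4.

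Cell cycle, cell death and autophagy gave 5 members. *Bbc3*, which encodes the pro-apoptotic protein PUMA and is a p53 target, had an r of 0.873 in Ex5 and 0.836 in Ex4. Its levels were 32.9 CPM at 270 min, 38.0 CPM and 44.9 CPM at 255 min in Ex5, and 26.0 CPM at 155 min, 33.1 CPM and 36.3 CPM at 327 min in Ex4. In Ex5 the highest and lowest libraries were neighbours in time, and *Hes7* had 367 CPM in the first and 223 CPM in the next. *Sertad1*, a CDK4-binding cofactor gene, had 11.9 CPM at 285 min, 15.7 CPM and 19.9 CPM at 210 min in Ex5, and 9.07 CPM at 405 min, 14.0 CPM and 17.6 CPM at 200 min in Ex4. Its fold of 1.39 was the largest of the 108. *Cdkn1c*, the CDK inhibitor p57, had 34.0 CPM at 425 min, 38.0 CPM and 44.5 CPM at 255 min in Ex5, and 24.0 CPM at 155 min, 28.1 CPM and 30.9 CPM at 260 min in Ex4. All Ex5 libraries lay above all Ex4 libraries for *Cdkn1c*. The autophagy genes *Becn1* (fold 1.05) and *Tecpr1* (fold 1.12) complete the group.

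Small GTPase, cytoskeleton and trafficking genes were the most numerous, with 24 members and a median fold of 1.11. *Tbc1d10b*, a GTPase-activating protein for Rab proteins (r 0.868 in Ex5, 0.834 in Ex4), had 27.6 CPM at 165 min, 39.3 CPM and 45.1 CPM at 405 min in Ex5, and 33.4 CPM at 155 min, 42.0 CPM and 44.8 CPM at 327 min in Ex4. The first 3 libraries of Ex5 and the first 2 of Ex4 were its lowest. *Arhgef2*, a microtubule-bound guanine nucleotide exchange factor, had 130.5 CPM at 325 min, 145 CPM and 159.6 CPM at 240 min in Ex5, and 118 CPM at 155 min, 143 CPM and 154 CPM at 385 min in Ex4, with ranges that overlap. *Borcs6*, a subunit of the complex that positions lysosomes, had 18.8 CPM at 195 min, 25.4 CPM and 30.3 CPM at 345 min in Ex5, and 14.7 CPM at 155 min, 20.5 CPM and 23.2 CPM at 200 min in Ex4. The ranges overlap, but the Ex5 median exceeds every Ex4 library. Further members at high r were *Plekhg3* (fold 1.144), *Nckap5l*, whose protein binds microtubules (1.129), *Arl4d* (1.198) and *Arf6* (1.115), both small GTPases, and *Wipf1*, a partner of WASP proteins (1.134).

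Transcription factors and cofactors gave 22 members with a median fold of 1.18, the largest of the role groups. *Sox4*, a SoxC factor of progenitor cells (r 0.845 in Ex5, 0.832 in Ex4), had 201 CPM at 425 min, 249 CPM and 314 CPM at 210 min in Ex5, and 227 CPM at 170 min, 252 CPM and 279.6 CPM at 215 min in Ex4. Its highest libraries were in the first cycle in both courses, and in Ex5 the second cycle was lower. *Cxxc5*, a CXXC zinc finger protein that binds Dishevelled, had an r of 0.772 in Ex5 and 0.934 in Ex4. It had 81.0 CPM at 425 min, 93.0 CPM and 107 CPM at 165 min in Ex5, and 88.6 CPM at 155 min, 106 CPM and 122 CPM at 215 min in Ex4. In Ex5 its highest library, at 165 min, was the one in which *Hes7* was lowest. *Sall4* (fold 1.12) is a zinc finger factor of stem and PSM cells, and *Dbp* (1.24) the output factor of the circadian clock. *Snai1* (1.27), *Ier5* (1.13), an immediate early gene, and *Skil* (1.27), which encodes the SMAD repressor SnoN, belong to the gene lists described below. *Erf* and *Cic*, picked for their role after their values were seen, encode repressors that ERK switches off. *Erf* had an r of 0.639 in Ex5 and of 0.956 in Ex4, the highest Ex4 value of the 108, and *Cic* had 0.686 in Ex5 and 0.709 in Ex4. With GC removed, *Erf* had 0.533 in Ex5 and 0.962 in Ex4 and *Cic* 0.437 and 0.477, so neither met the rule, and neither met it with r corrected for the GC slope.

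Chromatin genes gave 16 members, among them *Jade1*, *Jade2* and *Ing1*, whose PHD finger proteins belong to histone acetylation or deacetylation complexes. *Jade2*, a scaffold of HBO1 acetyltransferase complexes (r 0.767 in Ex5, 0.939 in Ex4), had 24.4 CPM at 425 min, 37.4 CPM and 52.2 CPM at 210 min in Ex5, and 36.9 CPM at 405 min, 51.1 CPM and 68.0 CPM at 200 min in Ex4. It was lowest in the last library of each course. Its relative *Jade1* had 36.4 CPM at 165 min, 47.4 CPM and 55.9 CPM at 385 min in Ex5, and 47.7 CPM at 275 min, 55.6 CPM and 64.0 CPM at 215 min in Ex4. Its highest library fell in the second cycle in Ex5 and in the first in Ex4. *Ing1* (fold 1.12) acts in SIN3 deacetylase complexes and *Tet3* (1.137) oxidises methylated cytosine. The Polycomb genes *Cbx2* (1.07), *Jarid2* (1.08) and *Epop* (1.12) also met the rule; these 3 were named after their values were seen. With GC removed, *Jarid2* still met it (0.658 in Ex5, 0.728 in Ex4), while *Cbx2* (0.382 and 0.307) and *Epop* (0.448 and 0.438) did not. None of the 3 met it without the 155 and 405 min libraries of Ex4.

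RNA binding, splicing and translation genes gave 14 members with the smallest median fold, 1.096. *Rbmxl1* encodes a relative of the splicing protein RBMX and is a near copy of its gene, so reads could be split between them. It had 72.3 CPM at 165 min, 84.1 CPM and 89.7 CPM at 385 min in Ex5, and 68.1 CPM at 405 min, 82.1 CPM and 88.2 CPM at 215 min in Ex4. Both ranges are narrow and overlap. *Zcchc3*, a zinc finger nucleic acid binder, had a fold of 1.142, and *Arl6ip4*, a splicing-related gene, had 1.137. The matrix and glycan genes *Col4a1*, *Col26a1*, *Ext1* and *B4galnt4* and 12 genes of other roles make up the rest.

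**Figure D4:**
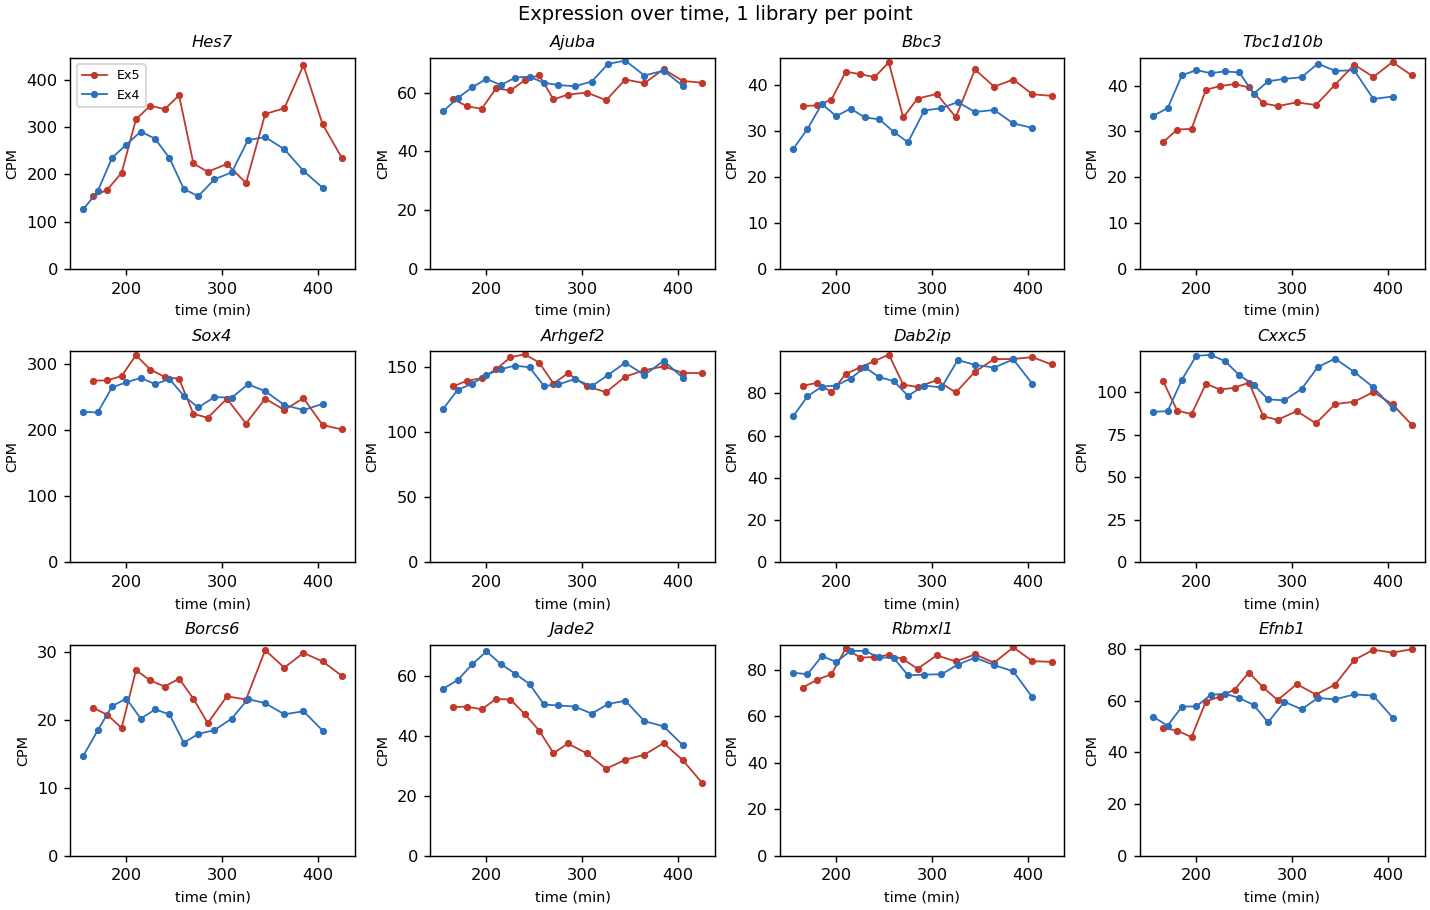
CPM against time in min for *Hes7*, the 10 members with the highest lower r and *Efnb1*, in Ex5 (red) and Ex4 (blue), 1 library per point. The members broadly share the first rise of *Hes7*, later in Ex5 than in Ex4, on a far flatter scale. The second rise is weak or uneven in some, as for *Rbmxl1* and *Sox4* in Ex5 and *Jade2* in Ex4. *Jade2* and *Efnb1* drift over the hours.

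Pairs among the 25 members with the highest lower r were ranked by r of their own residuals over the 16 libraries of a course. The closest were *Arhgef2* with *Sall4* (0.942 in Ex5, 0.845 in Ex4), *Cxxc5* with *Zcchc3* (0.849 and 0.928) and *Rbmxl1* with *Ing1* (0.944 and 0.827). All 25 were chosen for a high r of the same residuals with *Hes7*, so a high r between them is largely fixed by the rule. All 108 have a GENCODE M21 entry on GRCm38 (mm10). Of these, 7 (6.48%) have a single exon, *Sox4*, *Borcs6*, *Zcchc3*, *Ier5*, *Pcbp1*, *Epop* and *Ccdc85b*, against 180 of 9981 genes at 5 CPM or more (1.8%). The median exon number was 7 in members and 9 over those genes, and the median gene span 15091 and 25432 bp. The median transcript length was 3309 bp in members and 3296 bp over those genes. Chromosome 7 holds 16 members (14.8%, against 7.65% of those genes) and chromosome 11 holds 13 (12.0%, against 8.35%). Some are neighbours: *Phf23* and *Dvl2* lie 586 bp apart, and *Erf* and *Cic* 16943 bp. *Dbp* (chr7:45705088-45710203, plus strand) and *Sphk2* (chr7:45709467-45718002, minus strand) overlap, and since the strand setting of the counting is not given in the sources used here their reads cannot be told apart there.

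Promoters are shown for *Hes7* and 3 members that differ in the motifs they hold: *Ajuba*, the member with the highest lower r, *Efnb1*, a boundary ligand, and *Bbc3*. Sequences are from RefSeq on GRCm38.p6, 250 bases before to 50 after an annotated start, 5′ to 3′ on the gene's strand. They cover chr11:69120203-69120502 (plus) for *Hes7*, chr14:54577612-54577911 (minus) for *Ajuba*, chrX:99135811-99136110 (plus) for *Efnb1* and chr7:16309333-16309632 (plus) for *Bbc3*. Capitals mark the core TGGGAA of the site of RBPJ, the DNA-binding partner of Notch. They also mark the N-box CACNAG and the class C site CACGCG, which HES proteins bind. A string that lies on the other strand shows as its reverse complement.
Hes7: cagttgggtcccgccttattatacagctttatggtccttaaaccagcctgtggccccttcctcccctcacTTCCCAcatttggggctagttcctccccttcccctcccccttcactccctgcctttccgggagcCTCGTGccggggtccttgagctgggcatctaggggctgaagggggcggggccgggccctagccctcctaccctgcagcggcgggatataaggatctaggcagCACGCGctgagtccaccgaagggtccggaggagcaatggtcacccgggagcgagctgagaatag
Ajuba: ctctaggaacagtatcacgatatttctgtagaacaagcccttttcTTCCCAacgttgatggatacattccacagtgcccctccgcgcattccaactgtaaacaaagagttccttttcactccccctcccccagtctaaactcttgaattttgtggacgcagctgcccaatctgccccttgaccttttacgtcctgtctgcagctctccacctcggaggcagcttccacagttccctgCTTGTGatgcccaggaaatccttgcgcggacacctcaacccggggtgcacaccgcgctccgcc
Efnb1: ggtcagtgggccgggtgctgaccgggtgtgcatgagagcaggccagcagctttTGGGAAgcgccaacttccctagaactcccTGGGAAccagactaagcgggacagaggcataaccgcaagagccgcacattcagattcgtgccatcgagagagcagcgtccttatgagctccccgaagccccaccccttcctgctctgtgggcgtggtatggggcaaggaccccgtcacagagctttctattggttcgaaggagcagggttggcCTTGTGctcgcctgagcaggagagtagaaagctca
Bbc3: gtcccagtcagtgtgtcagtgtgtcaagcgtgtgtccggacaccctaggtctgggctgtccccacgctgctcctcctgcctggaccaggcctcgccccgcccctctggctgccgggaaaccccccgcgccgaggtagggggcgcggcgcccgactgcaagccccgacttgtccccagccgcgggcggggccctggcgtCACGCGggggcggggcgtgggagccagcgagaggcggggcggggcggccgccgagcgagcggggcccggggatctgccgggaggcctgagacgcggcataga

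The *Hes7* window holds an RBPJ core 180 bases, an N-box 116 bases and a class C site 14 bases before the start. *Ajuba* holds an RBPJ core 205 bases and an N-box 13 bases before it. *Efnb1* holds RBPJ cores 197 and 168 bases before the start and an N-box 15 bases after it. *Bbc3* holds a class C site 52 bases before it and neither of the others. Of the 77 members with an entry, 12 (15.6%) hold the RBPJ core on either strand, against 22.4% of 8018 promoters of genes at 5 CPM or more and 25.5% of all 27018 promoters. The N-box was found in 46.8%, against 39.3% of those expressed and 42.6% of all, and the class C site in 24.7%, against 19.6% and 9.41%. The SP/KLF string GGGCGG was found in 81.8%, against 69.4% and 35.9%, and the ETS string CCGGAA in 23.4%, against 31.7% and 15.2%. Each string was searched by itself, so overlapping matches count for both. The median GC of these windows was 65.0% in members and 62.0% over expressed genes. A match describes letters, not binding.

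The fixed signalling lists held 5 members. The lists leave out the genes dropped by name, among them *Lfng*, *Nrarp*, *Notch1*, *Dusp4* and *Per1*, which passed the thresholds, so the counts describe the remaining genes and not the pathways. Members numbered 1 of 20 FGF/ERK genes at 5 CPM or more (*Snai1*), 1 of 18 immediate early genes (*Ier5*), 0 of 18 Notch genes, 0 of 19 Wnt genes, 1 of 8 BMP and TGF-beta genes (*Skil*), 1 of 11 circadian genes (*Dbp*), 1 of 8 p53 genes (*Bbc3*) and 0 of 10 housekeeping genes, beside 1.08% of all such rows. *Tgif1*, a TGF-beta co-repressor gene, opposed *Hes7* (r -0.758 in Ex5 and -0.85 in Ex4). Median r over the FGF/ERK list was 0.468 in Ex5 and 0.173 in Ex4, and over the Notch list 0.0906 and -0.0295. With GC removed, *Snai1* had an r of 0.649 in Ex5 and 0.468 in Ex4 and did not meet the rule. *Ier5* did not meet it without the 155 and 405 min libraries of Ex4. *Bbc3*, *Dbp* and *Skil* met it in both settings. Levels of *Snai1* were 53.6 CPM at 285 min, 74.9 CPM and 85.6 CPM at 425 min in Ex5, and 41.8 CPM at 245 min, 48.3 CPM and 58.0 CPM at 327 min in Ex4. Levels of *Dbp*, of *Ier5* and of *Skil* overlapped between the courses, with medians of 9.77, 38.3 and 12.1 CPM in Ex5 and 8.53, 33.7 and 13.0 CPM in Ex4.

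The straight-line change over the hours, which the rule had removed, was tested with edgeR's quasi-likelihood F test with Benjamini-Hochberg adjustment over all 11772 genes tested, at 0.05; all 108 members passed the filter on low counts. Members drifted upward more often than down. Averaged over the courses, 48 of 108 members rose (44.4%, against 26.8% of all genes tested) and 13 fell (12%, against 26.6%), 61 in all (56.5%, against 53.3%). The median slope was 0.037 log2 per 100 min in members and -0.0016 over all genes. The risers include 9 of 11 signalling and adhesion members, 11 of 24 GTPase, cytoskeleton and trafficking members and 7 of 22 transcription factors and cofactors. They also include 6 of 16 chromatin, 7 of 14 RNA binding, 2 of 4 matrix and glycan and 6 of 12 other members. None of them is among the 5 cell cycle, cell death and autophagy members.

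*Otx1*, a homeobox gene at a low level, rose most, by 0.42 ± 0.04 log2 per 100 min (SE, adjusted p 3.4e-10), followed by *Pdzrn3* (0.34 ± 0.02, 6.1e-16), *Ppp1r35*, a centriole gene (0.25 ± 0.03, 3.5e-09), *Dbp* (0.24 ± 0.03, 3.7e-09) and *Mex3d*, an RNA-binding ubiquitin ligase gene (0.21 ± 0.02, 3.9e-10). *Otx1* had 3.59 CPM at 165 min, 8.27 CPM and 11.8 CPM at 425 min in Ex5, and 2.89 CPM at 170 min, 5.75 CPM and 8.07 CPM at 327 min in Ex4. Its 3 lowest Ex5 libraries were the first 3, and its 2 lowest Ex4 libraries the first 2. *Jade2* fell most (-0.30 ± 0.02, 5.2e-14), then *Arl4d* (-0.28 ± 0.02, 2.0e-12), *Sall4* (-0.17 ± 0.02, 1.0e-11), *Nes*, the intermediate filament nestin (-0.10 ± 0.02, 0.00011), and *Jarid2* (-0.09 ± 0.01, 2.3e-07). In the fixed lists, 4 of 22 tested FGF/ERK genes rose and 9 fell. Of 23 immediate early genes, 7 rose and 4 fell. Of 21 Notch genes, 7 rose and 5 fell, and of 20 Wnt genes, 7 and 8. Of 11 BMP and TGF-beta genes, 3 rose and 4 fell, and of 12 circadian genes, 5 and 3. Of 8 p53 genes, 0 rose and 6 fell, and of 10 housekeeping genes, 4 and 1. Over all genes tested, 26.8% rose and 26.6% fell. Of the 4 epiblast markers at 5 CPM or more, 3 fell, with slopes of -0.59 for *Cdh1*, -0.54 for *Pou5f1* and -0.22 for *Sox2*, and 1 rose, *Dnmt3b* (0.06). Their part in the members' drift was not tested.

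Most members stood at different levels in the 2 courses. At 285 min in the fit, 55 of 108 were higher in Ex5 (50.9%, against 27.4% of all genes tested) and 20 were lower (18.5%, against 27.7%), 75 in all (69.4%, against 55.1%). The median difference was 0.064 log2 in members and -0.0021 over all genes. By role, RNA binding had 7 of 14 members higher in Ex5 and 0 lower, and chromatin 5 of 16 higher and 6 lower. Signalling and adhesion had 5 of 11 higher and 1 lower, and GTPase, cytoskeleton and trafficking 12 of 24 and 6. Transcription factors and cofactors had 11 of 22 higher and 5 lower, and cell cycle, cell death and autophagy 4 of 5 and 0. Matrix and glycan genes had 3 of 4 higher and 1 lower, and other roles 8 of 12 and 1. *Col26a1*, a collagen gene, differed most (0.86 ± 0.04 log2, Ex5 minus Ex4, adjusted p 4.2e-22 in edgeR's quasi-likelihood test). It had 16.0 CPM at 325 min, 17.7 CPM and 20.9 CPM at 255 min in Ex5, and 7.87 CPM at 170 min, 9.96 CPM and 11.2 CPM at 385 min in Ex4, with no overlap between the courses. *Arl4d* was next (0.80 ± 0.03, 1.2e-21), with 59.9 CPM at 425 min, 99.9 CPM and 126 CPM at 225 min in Ex5, and 45.4 CPM at 405 min, 56.1 CPM and 68.1 CPM at 215 min in Ex4. Its 2 latest Ex5 libraries reached down into the Ex4 range. *Phox2a* (0.56 ± 0.07, 4.6e-08), *Snai1* (0.55 ± 0.04, 1.0e-15) and *Inka1*, an inhibitor of the kinase PAK4 (0.54 ± 0.03, 1.3e-18), followed, and *Cdkn1c* was higher by 0.51 ± 0.03 (7.3e-16).

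Lower in Ex5 were *Mbp* (-0.57 ± 0.03, adjusted p 2.0e-20), whose locus encodes myelin basic protein and the golli proteins, *Zic2*, a zinc finger factor (-0.45 ± 0.04, 4.6e-12), *Jade2* (-0.38 ± 0.03, 7.7e-13), *Mtcl1*, which crosslinks microtubules (-0.38 ± 0.04, 2.8e-10), and *Sipa1l2*, a Rap GTPase-activating protein (-0.33 ± 0.03, 1.8e-13), in edgeR's quasi-likelihood test. *Mbp* had 16.7 CPM at 165 min, 24.4 CPM and 33.7 CPM at 365 min in Ex5, and 31.7 CPM at 155 min, 36.8 CPM and 41.5 CPM at 327 min in Ex4. Its Ex5 libraries at 365 and 385 min reached the Ex4 range. Among the members with the highest r, *Borcs6* was higher in Ex5 (0.33 ± 0.04, 3.1e-09), *Bbc3* was higher (0.28 ± 0.03, 3.7e-09) and *Jade1* was lower (-0.24 ± 0.03, 1.6e-09), while *Ajuba* differed by -0.04 ± 0.02 (0.077) and *Sox4* by 0.02 ± 0.03 (0.54). In the fixed lists, 10 of 22 FGF/ERK genes were higher in Ex5 and 9 lower. Of 23 immediate early genes, 14 were higher and 3 lower. Of 21 Notch genes, 6 were higher and 8 lower, and of 20 Wnt genes, 3 and 12. Of 11 BMP and TGF-beta genes, 4 were higher and 5 lower, and of 12 circadian genes, 5 and 3. Of 8 p53 genes, 2 were higher and 6 lower, and of 10 housekeeping genes, 3 and 0. Over all genes tested, 27.4% were higher and 27.7% lower. All 4 epiblast markers were lower in Ex5, and their part in the members' levels was not tested.

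The drift itself differed between the courses for some members. The slope was more upward in Ex5 than in Ex4 for 13 of 108 (12%, against 7.02% of all genes tested) and less upward for 9 (8.33%, against 9.06%), 22 in all (20.4%, against 16.1%). *Mbp* rose by 0.36 log2 per 100 min in Ex5 and 0.06 in Ex4, and the difference was 0.30 ± 0.03 (adjusted p 2.0e-07, edgeR's quasi-likelihood test). *Efnb1* had slopes of 0.25 and 0.03 in Ex5 and Ex4, a difference of 0.22 ± 0.03 (3.0e-05). *Sox4* had slopes of -0.18 in Ex5 and 0.00 in Ex4, a difference of -0.18 ± 0.04 (0.00093). *Arl4d* fell in both, with slopes of -0.38 in Ex5 and -0.18 in Ex4, and *Glis3*, a Krüppel-like zinc finger gene at a mean of 9.64 CPM, had slopes of -0.28 and 0.14. The count depended on the 180 min library of Ex5, without which 14 members passed in place of 22, and it was 40 with quadratic time and 36 with GC removed.

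**Figure D5:**
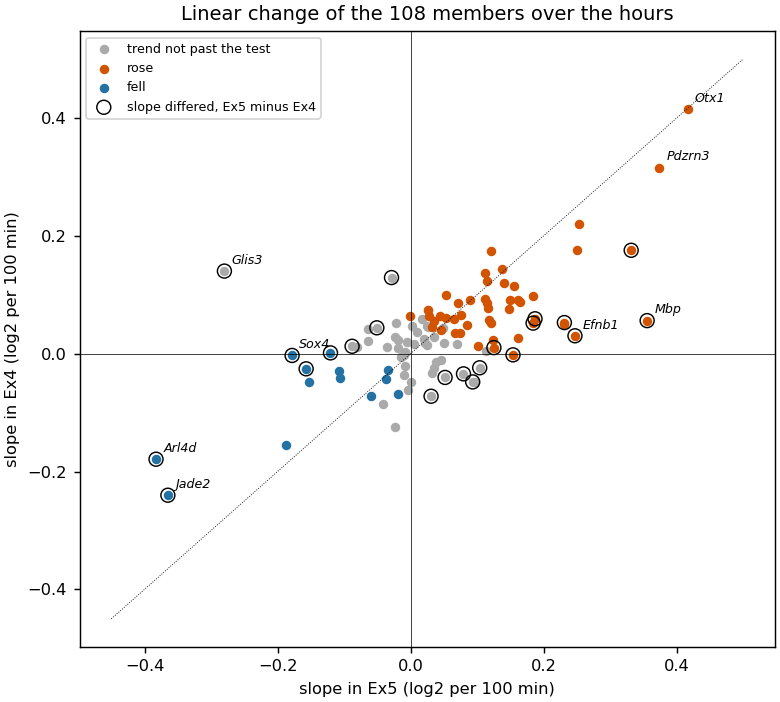
Slope over time in log2 per 100 min in Ex5 (horizontal) and Ex4 (vertical) for the 108 members; orange, mean slope past the test upward (48), blue, downward (13), grey, not past it; circles mark the 22 members whose slopes differed between the courses, and the dotted line marks equal slopes. Of the circled genes, 13 lie below the line, more upward in Ex5, and 9 above it, less upward in Ex5.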

How the data were processed

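Gene expression was measured by polyadenylated RNA-seq in 32 libraries of mouse PSM cells, 16 of Ex5 and 16 of Ex4. Values were deposited as raw counts of reads per gene symbol; the submitters' processing notes name bcl2fastq 2.17.1.14, cutadapt 1.14, HISAT2 2.1.0, HTSeq 0.6.1 and mm10, and the gene annotation used by the authors is not given in the sources used here. Columns were matched to samples by the sample descriptions (0 columns unused; 0 identical libraries), and 3706 of 21886 rows were 0 throughout. Depth was 16.1 to 28.6 M counts in Ex5 and 19.3 to 29.5 M in Ex4, which limits the precision for genes at a few CPM.

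The members, gene lists and tests were chosen with earlier results of these data known, and the role groups after the members were seen, so none is independent support. CPM used column totals for the rule. Tests used edgeR 4.0.16 in R 4.3.3 with TMM factors on the genes that reached 1 CPM in 16 or more libraries. The model had an intercept and a slope per course centred at 285 min plus cosine and sine of the *Hes7* phase (1 period, searched from 90 to 240 min, and a peak time per course). Trend is the mean of the 2 slopes, and level and slope are differences Ex5 minus Ex4. Estimates are log2 with SE, and the procedure was tested on simulated data. Named were the 25 members with the highest lower r, members in a fixed list, the 4 nearest the threshold on each side, and the 5 largest estimates each way per test; others are named after their values were seen. DESeq2 1.42.0 and limma 3.58.1 (voom) served as alternatives, along with other scalings, filters, time terms and left-out libraries. Promoters come from RefSeq (GRCm38.p6), matched by symbol for 77 of 108 members, and gene positions from GENCODE M21.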

Additional observations from a re-analysis of the deposited data

Results flagged for a closer look

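The straight-line slope over the hours differed between Ex5 and Ex4 in 22 members (edgeR's quasi-likelihood test, Benjamini-Hochberg adjustment over all genes). This is 20.4% of the members, beside 16.1% of all genes tested and 17.3% of those at 5 CPM or more, and it was 14 without the 180 min library of Ex5. The differences, Ex5 minus Ex4 in log2 per 100 min, were 0.30 for *Mbp*, 0.22 for *Efnb1*, 0.18 for *Arl6ip4*, 0.16 for *Ppp1r35* and 0.16 for *Rpl36* among those more upward in Ex5. They were -0.42 for *Glis3*, -0.20 for *Arl4d*, -0.18 for *Sox4*, -0.16 for *Col26a1* and -0.13 for *Jarid2* among those less upward in Ex5. Ex5 and Ex4 were run as separate experiments with 1 dish per time point, so a difference between them and a difference between batches cannot be told apart.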

How the results depend on the processing

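The number of members (108) depends on the processing more than the tests do. It was 69 with Spearman's rho, 24 with r of at least 0.7, 55 with GC removed (38 of them among the 108) and 60 without the 155 and 405 min Ex4 libraries (49 among the 108). The r corrected for the GC slope was computed for the 108 alone, of which 41 kept the threshold. These last 3 settings were chosen after seeing the data. Leaving out 1 library gave 58 to 156. TMM scaling gave 125 (105 shared), no trend removal 78 (59 shared) and quadratic time 107 (70 shared). Opposing rows numbered 52 with GC removed, against 68. The count of members past the trend test was 59 to 69 in the alternatives other than leaving out 1 library (58 to 66 with 1 library left out, 61 as reported). For level it was 58 to 80 (73 to 77 with 1 library left out, 75 as reported). GC was removed from deviations about the mean of each course, so this setting could not take out a GC difference between the courses. The part of such a difference in the level counts was not tested. For slope it was 40 with quadratic time, 36 with GC removed and 16 to 31 in the others (14 to 25 with 1 library left out; 22 as reported). None of the largest estimates each way per test, chosen for naming as described above, changed sign. Other estimates named in the text, such as the level differences of *Ajuba* and *Sox4*, were not followed across the settings. The slope difference of *Ppp1r35* missed the threshold in 23 settings (adjusted p up to 0.116), that of *Rpl36* in 3 (up to 0.0799) and that of *Glis3* in 1 (0.0507).

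Time points share numbers across courses, but these give only time order. Residuals of same-numbered libraries correlated at -0.159 to 0.145, 3 of 16 pairs over 0.1, and 0 of 16 Ex5 libraries correlated best with its own number. With the number as a replicate block, 73 members passed for level and 26 for slope. The cause of these shifts was not tested. With 1 library per time point, small swings in genes under 10 CPM are limited by counting error.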
